A study of Rattus norvegicus with 14 samples.

Results

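The genes described here encode subunits of the GABA-A receptor, measured in dentate gyrus RNA of rats that had either learned or not learned a new spatial layout. The list named 7 genes, and 6 of them (Gabra4, Gabra5, Gabrb1, Gabrb2, Gabrg1 and Gabrd) were represented by 7 probe sets among 15866 non-control probe sets, of which 12783 carried a single gene symbol, 10411 different genes in all. A probe set was taken where its single gene symbol in the array annotation was a listed gene. Gabrb2 had 2 probe sets and the other genes 1 each. Gabra2 was not analysed here.

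The dentate gyrus was microdissected from 14 male Long-Evans rats, 3 to 4 months old, and each RNA went to its own Affymetrix RAE230A array, so each group had 7 biological replicates. All rats had been trained in a standard water maze 2 to 3 weeks before, the controls included, and then received 1 session of 8 trials in a maze at a different site. Learning rats swam with orienting cues in view to a visible platform in a fixed place, whereas control rats swam to a visible platform that changed place, with no informative cues. Every rat had a 90 s probe swim 1 h later and was killed directly afterwards. The comparison addresses whether subunit transcripts differ after a session that offered spatial information to encode. Values are deposited log2 expression values per probe set. A level therefore refers to 1 probe set, and levels of different genes are not compared with each other.

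The GABA-A receptor is a chloride channel built from a ring of subunits, and GABA opens it at the contact between alpha and beta subunits. The gamma subunits take part in placing receptors at synapses, whereas the delta subunit joins mainly with alpha4 in receptors outside synapses that respond to low ambient GABA. In dentate granule cells such receptors carry a tonic current that keeps the cells hard to excite. Several subunit genes lie in clusters: in the RefSeq gene table (assembly GRCr8) Gabrb1 and Gabra4 are neighbouring coding genes on chromosome 14, on opposite strands, and Gabrg1 lies in the same cluster. Gabra5 lies next to Gabrg3 on chromosome 1, Gabrb2 next to Gabra6 on chromosome 10, and Gabrd by itself on chromosome 5.

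No subunit passed the test between learning and control rats. The beta2 gene Gabrb2 came closest, with a mean 0.24 ± 0.08 log2 units (SE) above that of control rats, while the beta1 gene Gabrb1 had a difference of -0.17 ± 0.10 (SE). Gabra4 and Gabrg1 had differences of 0.20 and 0.26, and Gabrd and Gabra5 differed by under 0.1. Of 6 subunit probe sets tested with limma, 0 were called at a Benjamini-Hochberg adjusted p below 0.05, and of all 9387 tested probe sets likewise 0 (0%). At an unadjusted p below 0.05 there was 1 subunit probe set, Gabrb2, beside 1230 probe sets or 13.1% of the whole table. Without control replicate 6 there were 3 subunits (Gabrb2, Gabrb1 and Gabra4), and with the CA1 marker mean as covariate, or with the probe sets of a gene averaged, there were 0. The subunits' median difference was 0.14 and their median absolute difference 0.18, against 0.0018 and 0.08 over 6697 genes. The groups overlapped for all 6 subunits, as they did for all but 38 probe sets (0.405%) of the table.

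**Figure D1:**
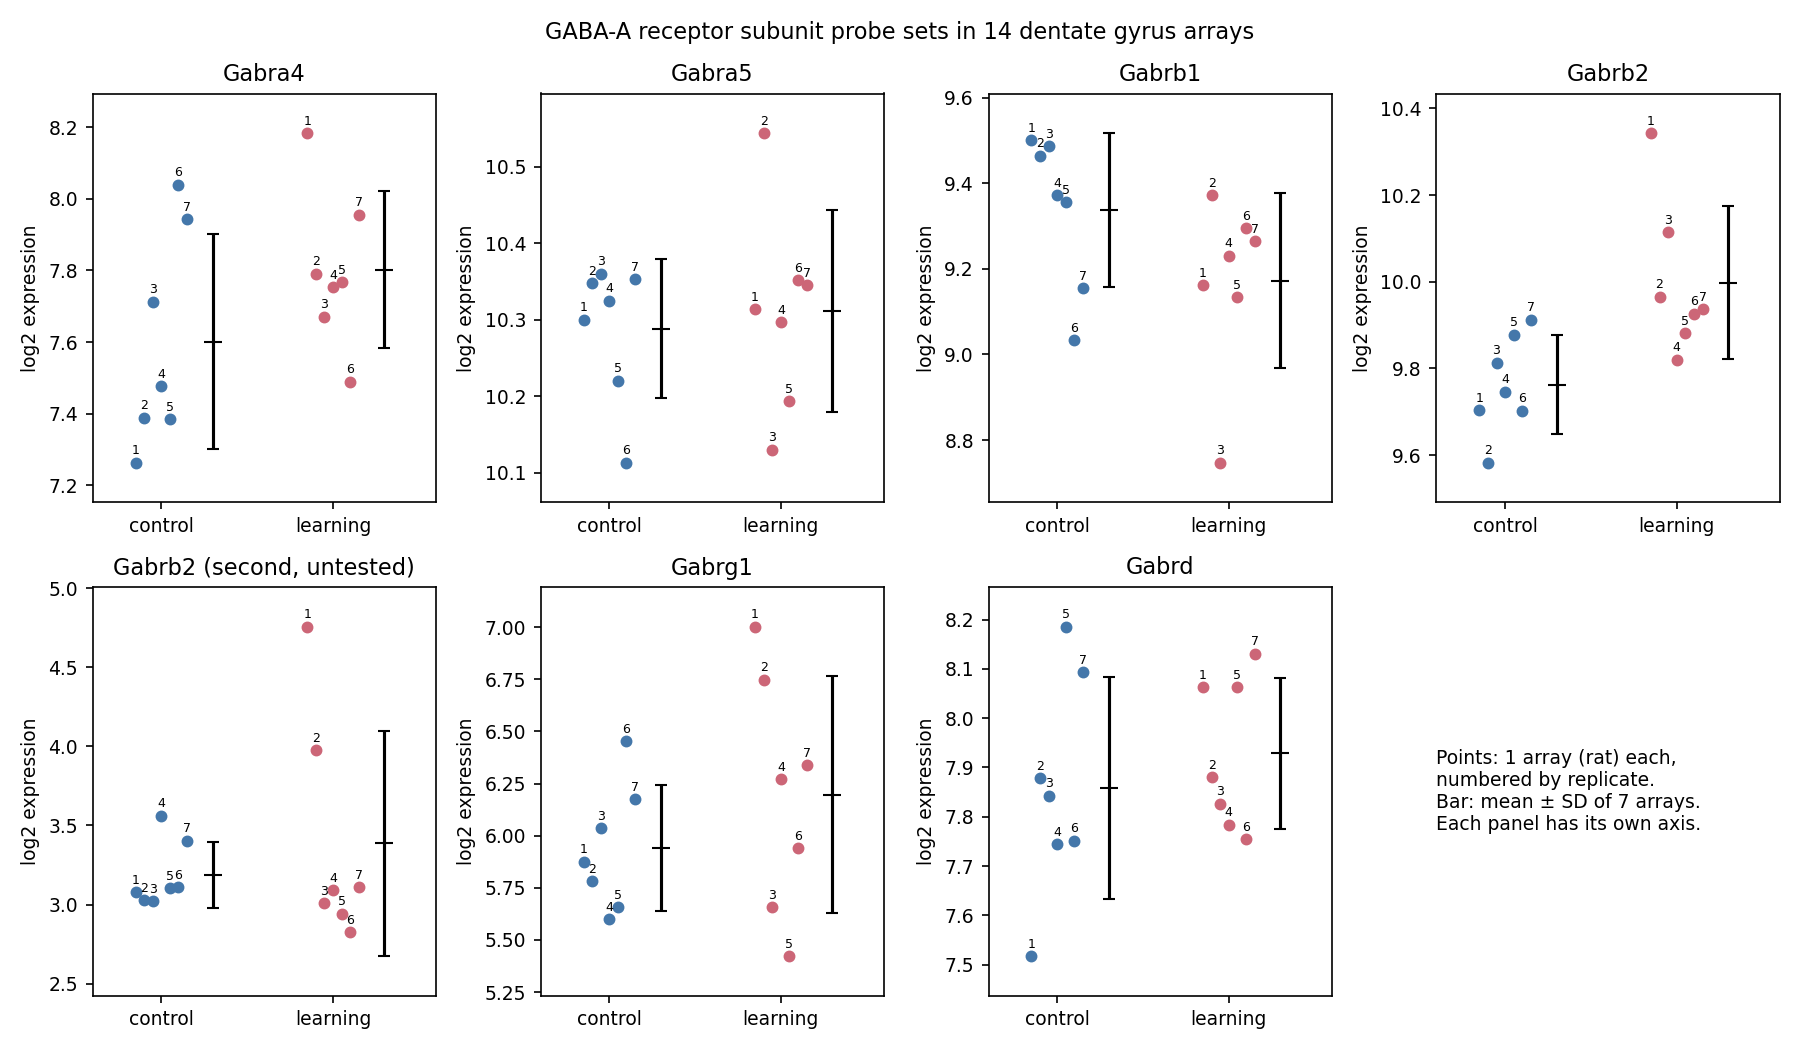
Log2 expression of each subunit probe set in 14 arrays, 1 point per rat, numbered by replicate, with the mean and SD of the 7 arrays of each group beside the points. Each panel has its own vertical axis; for Gabrb2, 5 of 7 learning arrays lie above the highest control array, and in the other panels at most 2 do.

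The beta subunits contribute the main face of the GABA binding site and are needed for receptors to assemble. Gabrb2 was at 9.58 in the lowest control array, 9.75 in the median and 9.91 in the highest. In learning rats the same values were 9.82, 9.94 and 10.3. Of the learning arrays 5 of 7 lay above every control array, and 5 of 7 control arrays lay below every learning array. The share of all tested probe sets placed in this way was not counted. The control mean was 9.76 ± 0.11 and the learning mean 9.998 ± 0.18 (SD, n = 7 each). This was a 1.18-fold difference with a 95% confidence interval from 1.05 to 1.32, an unadjusted p of 0.00882 in limma, which became 0.242 after adjustment. It stood in place 340 of the 9387 probe sets ordered by p.

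The second Gabrb2 probe set was dim, with a mean of 3.29, below the level of 4 required for testing. Its control values ran from 3.02 to 3.56 with a median of 3.10, and its learning values from 2.82 to 4.76 with a median of 3.09. Learning replicates 1 and 2, at 4.76 and 3.98, were above every control array, and 3 of 7 learning arrays were below every control array. The higher level of the bright probe set in most learning arrays was therefore not seen on the dim one. GCRMA compresses differences near background. With both probe sets averaged, the Gabrb2 difference was 0.22 with an unadjusted p of 0.175.

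Gabrb1 was at 9.03 in its lowest control array, 9.37 in the median and 9.50 in the highest. Learning values were 8.75, 9.23 and 9.37. Here the order was the opposite of Gabrb2: 4 of 7 control arrays lay above every learning array, and all 7 learning arrays lay below the control median. Placement of all 7 learning arrays below that median occurred for 6.55% of tested probe sets, and above it, as for Gabrb2 and Gabra4, for 5.42%. The group means of Gabrb1 were 9.34 ± 0.18 and 9.17 ± 0.20 (SD, n = 7 each). The confidence interval of the difference ran from -0.37 to 0.04, with an adjusted p of 0.485 in limma. Without learning replicate 3, the lowest array, the difference was -0.09.

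Gabrb1 was also subtracted from Gabrb2 within each array, and the result is read only between groups. With the group means removed, the 2 probe sets had a Pearson r of -0.33 over 14 arrays, so they did not rise and fall together. This difference was 0.12 in the lowest control array, 0.37 in the median and 0.76 in the highest, and 0.59, 0.67 and 1.37 in learning rats. It was below the lowest learning value in 5 of 7 control arrays, and 2 learning arrays, replicates 1 and 3, were above the highest control value. The means were 0.42 ± 0.24 and 0.83 ± 0.32 (SD, n = 7 each). The pair was chosen with both differences known and in opposite directions, so a wider gap between groups came with the choice. The values are a description with no test.

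The stretches around the starts of Gabrb1 and Gabrb2 are shown because these beta genes differed in opposite directions and share a motif. They are RefSeq sequences of assembly GRCr8, 250 bases before to 50 after the annotated start, 5′ to 3′. All 6 subunit genes had an entry. Capitals mark the letters GCGCATGCGC, the palindromic core bound by nuclear respiratory factor 1, a transcription factor that is known to act on the human GABRB1 promoter.
Gabrb1, chr14:36902844-36903143, minus strand: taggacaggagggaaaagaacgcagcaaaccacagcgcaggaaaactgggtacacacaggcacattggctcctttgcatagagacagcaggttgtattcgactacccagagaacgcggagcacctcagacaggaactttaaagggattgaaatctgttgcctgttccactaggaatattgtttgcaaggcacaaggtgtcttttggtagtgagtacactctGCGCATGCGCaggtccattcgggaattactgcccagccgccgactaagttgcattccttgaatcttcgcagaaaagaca
Gabrb2, chr10:27439543-27439842, plus strand: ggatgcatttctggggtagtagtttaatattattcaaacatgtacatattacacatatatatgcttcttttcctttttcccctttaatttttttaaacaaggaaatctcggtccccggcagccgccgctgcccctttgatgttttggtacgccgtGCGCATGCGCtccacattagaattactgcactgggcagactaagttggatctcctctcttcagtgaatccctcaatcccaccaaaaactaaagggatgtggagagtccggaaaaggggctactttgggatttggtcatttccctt
The motif began 29 bases upstream of the Gabrb1 start and 95 bases upstream of the Gabrb2 start. It was in 0.852% of 33469 rat promoter windows and in no other subunit window. With the base before it, it is the longest run the Gabrb1 and Gabrb2 windows share, at 11 bases. The Gabra4 and Gabrd windows also share a run of 11 bases, with other letters. The motif GCGCATGCGC was chosen after the sequences had been seen. A search of both strands for TGACGTCA (the cAMP response element), GCGGGGGCG and GCGTGGGCG (EGR sites), TGAGTCA (the AP-1 site) and TATAAA found no match in the window of any of the 6 genes. These were in 1.83%, 2.73%, 0.544%, 4.63% and 14.2% of all windows. A match is a string of letters and was not tested as a binding site.

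The alpha subunits set where a receptor sits and which drugs it responds to. Gabra4 encodes the subunit that partners with delta outside synapses. Its control values were 7.26 at the lowest, 7.48 at the median and 8.04 at the highest, and its learning values 7.49, 7.77 and 8.18. All 7 learning arrays were above the control median, yet control replicates 6 and 7, at 8.04 and 7.94, lay among the highest learning arrays. The means were 7.60 ± 0.30 and 7.80 ± 0.22 (SD, n = 7 each), a 1.15-fold difference with an interval from 0.949 to 1.39 and an adjusted p of 0.522 in limma. Without learning replicate 1 the log2 difference was 0.14.

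Gabra5 encodes the alpha subunit that is abundant in hippocampal pyramidal cells and found mostly outside synapses. It varied little. Control arrays ran from 10.1 to 10.4 with a median of 10.3, and learning arrays from 10.1 to 10.5 with a median of 10.3. The difference was 0.02 ± 0.06 (SE), with an interval from -0.11 to 0.16 and an adjusted p of 0.898 in limma. An interval of that width leaves room for a fold between 0.925 and 1.12. The SD within groups, 0.11, was at percentile 22.9 of all tested probe sets.

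Gabrd encodes delta, the subunit of the tonic receptors of granule cells. Its control values were 7.52, 7.84 and 8.19 at the lowest, median and highest array, and its learning values 7.75, 7.88 and 8.13. The learning arrays lay within the control range. The means were 7.86 ± 0.23 and 7.93 ± 0.15 (SD, n = 7 each), a difference of 0.07 ± 0.10 (SE; adjusted p = 0.779 in limma). Leaving out control replicate 1 made it 0.01, leaving out control replicate 5 made it 0.12, and it was -0.07 with the CA1 marker mean as covariate. Gabra4 and Gabrd, which can form the same receptor, thus had intervals of -0.08 to 0.48 and -0.14 to 0.28 for their log2 differences.

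Gabrg1 encodes gamma1, a less common gamma subunit that is also found in some glial cells. It was the most variable subunit, with an SD within groups of 0.46, at percentile 98.3 of all tested probe sets. Control arrays had a lowest value of 5.601, a median of 5.88 and a highest value of 6.45. Learning arrays had 5.42, 6.27 and 7.00. Learning replicates 1 and 2, at 7.00 and 6.75, were above every control array, while learning replicate 5 was below every one. The difference was 0.26 ± 0.22 (SE), or 1.20-fold with an interval from 0.865 to 1.65 and an adjusted p of 0.621 in limma. Without learning replicate 1 it was 0.12, and without learning replicate 5 it was 0.39.

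Learning replicate 1 was the highest of all 14 arrays for Gabra4, for Gabrg1 and for both Gabrb2 probe sets. The log2 difference of the bright Gabrb2 probe set was 0.18 without that array. Among the learning arrays it had the highest mean of interneuron markers, 8.48, and the lowest mean of granule cell markers, 8.34. Its mean of choroid plexus markers, 6.34, was the lowest of all 14 arrays. Its mean of CA1 markers, 7.53, lay within the range of the other learning arrays. Its mean of astrocyte markers, 10.84, was nearly equal to that of learning replicate 2, 10.839. The part of these markers in the result was not tested.

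Another 9 subunit genes were represented by 12 probe sets: Gabra3, Gabra6, Gabrg3, Gabre, Gabrp, Gabrq, Gabrr1, Gabrr2 and Gabrr3. None of the 12 probe sets reached the testing level. Their means lay between 1.39 and 2.87. Over the whole array 40.8% of non-control probe sets were below the testing level. Gabra6, which in the brain is mainly a gene of cerebellar granule cells, had a mean of 1.39. Group differences of these dim probe sets ran from -0.0094 to 0.02.

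The subunits did not vary as a block. Deviations from the group mean were compared between the 15 pairs of subunit genes over 14 arrays, and 9 pairs had a positive and 6 a negative Pearson correlation. In a permutation test with 100000 resamples within groups, 2 pairs passed adjustment over the 15. Gabra5 and Gabrb1 had r = 0.76 (p = 0.00316, adjusted p = 0.0239) and a Spearman rho of 0.70 (p = 0.00864, adjusted p = 0.0648). Gabra4 and Gabrg1 had r = 0.68 (p = 0.00319, adjusted p = 0.0239) and a rho of 0.69 (p = 0.0059, adjusted p = 0.0648). By Spearman's rho 0 pairs passed adjustment.

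**Figure D2:**
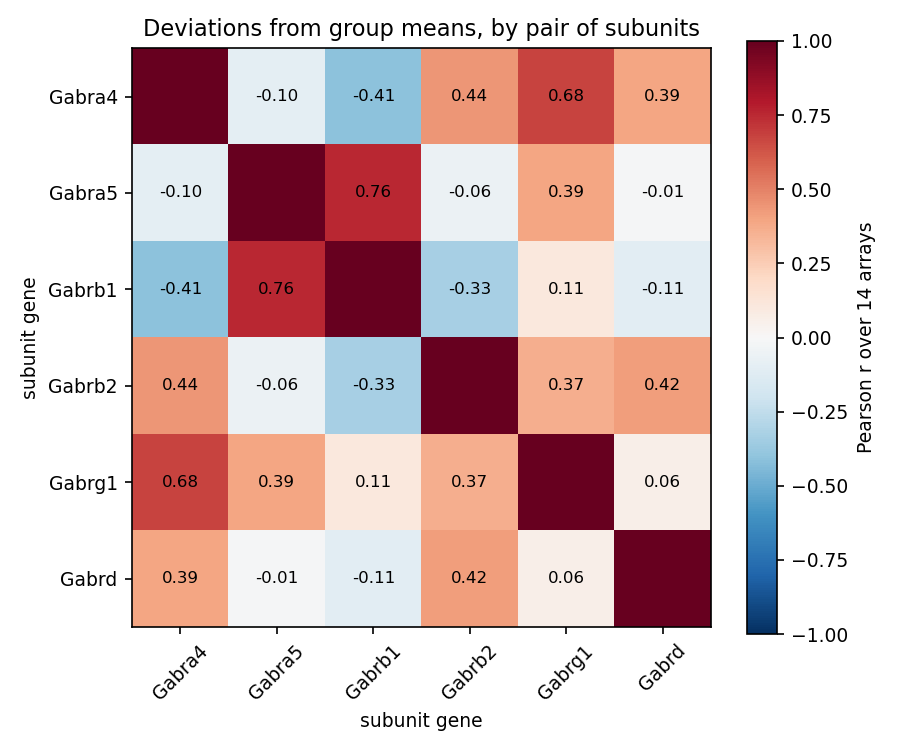
Pearson correlation of deviations from the group means over 14 arrays for each pair of 6 subunit genes, with the colour scale running from -1 to 1. Gabra5 with Gabrb1 (0.76) and Gabra4 with Gabrg1 (0.68) are the highest values, and Gabra4 with Gabrb1 (-0.41) is the lowest.

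Both pairs had a positive r in each group, over 7 arrays each and with no test within a group. For Gabra5 and Gabrb1, r was 0.63 in the 7 control arrays and 0.84 in the 7 learning arrays, and 0.62 without learning replicates 2 and 3, the arrays farthest from the median of Gabra5. Control replicate 6 and learning replicate 3 were low for both genes. For Gabra4 and Gabrg1, r was 0.87 in control and 0.67 in learning arrays, and 0.44 without control replicate 6 and learning replicate 1, which were high for both. The second relation thus rested partly on those arrays. Leaving out any 1 array gave r from 0.67 to 0.85 for the first pair and from 0.58 to 0.76 for the second.

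**Figure D3:**
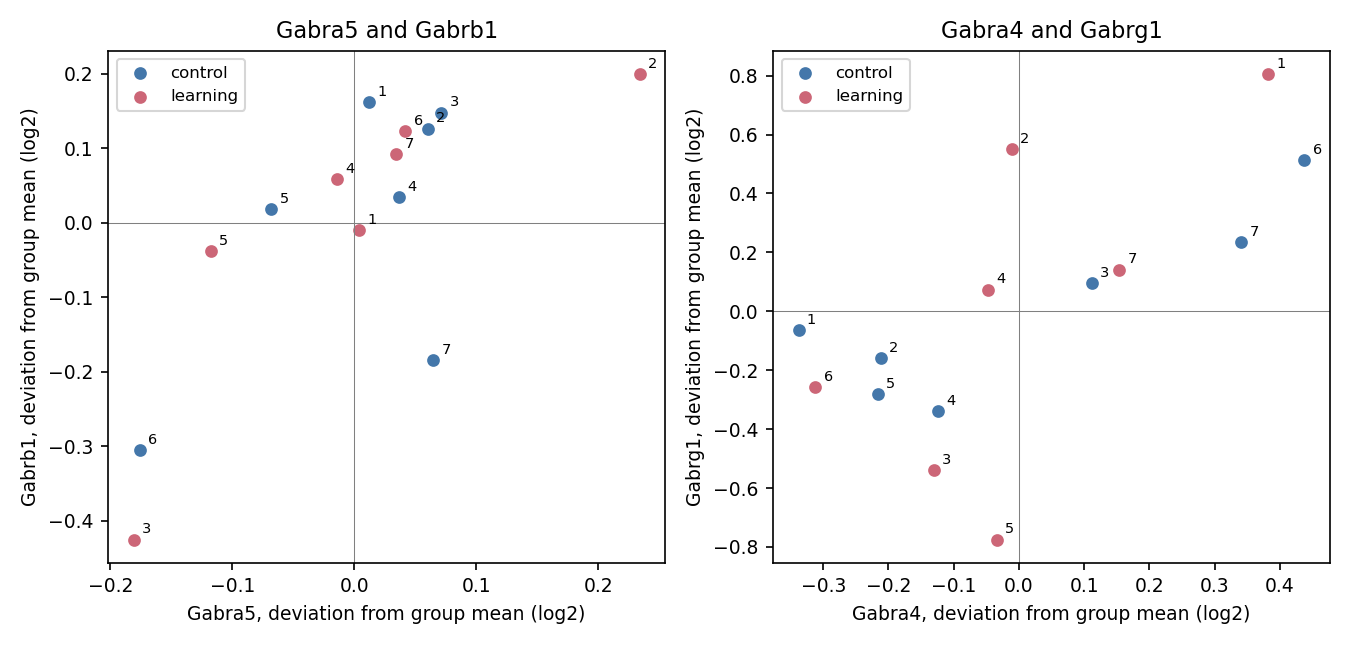
Deviation from the group mean in log2 units for Gabrb1 against Gabra5 (left) and Gabrg1 against Gabra4 (right), 1 point per array, coloured by group and numbered by replicate. Points run from lower left to upper right in both panels (r = 0.76 and 0.68), with control replicate 7 off the line on the left and learning replicates 2 and 5 off it on the right.

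The pair Gabra4 and Gabrg1 belongs to 1 gene cluster, while Gabra5 and Gabrb1 lie on different chromosomes. The neighbouring genes Gabra4 and Gabrb1 had r = -0.41 (p = 0.158, adjusted p = 0.472), with a rho of -0.37 (p = 0.218, adjusted p = 0.515) and r = -0.23 without control replicate 6 and learning replicate 1. Within groups this was -0.83 in control and 0.09 in learning arrays. The start regions of Gabra4 and Gabrg1 are shown as those of the clustered genes that varied together, from the same RefSeq table. Capitals mark GGGCGG, the GC box bound by Sp-family factors.
Gabra4, chr14:36944497-36944796, plus strand: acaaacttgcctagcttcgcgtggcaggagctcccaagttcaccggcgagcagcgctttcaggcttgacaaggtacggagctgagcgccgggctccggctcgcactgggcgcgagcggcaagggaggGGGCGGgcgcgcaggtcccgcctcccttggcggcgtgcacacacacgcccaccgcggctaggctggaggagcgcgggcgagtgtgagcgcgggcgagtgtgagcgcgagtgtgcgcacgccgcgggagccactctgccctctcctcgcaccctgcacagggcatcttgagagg
Gabrg1, chr14:37750042-37750341, plus strand: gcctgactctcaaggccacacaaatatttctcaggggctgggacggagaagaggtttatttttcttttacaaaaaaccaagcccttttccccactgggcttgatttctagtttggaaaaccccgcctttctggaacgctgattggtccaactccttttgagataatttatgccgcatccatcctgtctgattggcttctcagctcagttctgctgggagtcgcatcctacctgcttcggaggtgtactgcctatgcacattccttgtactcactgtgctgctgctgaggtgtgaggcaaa
The Gabra4 window had 1 GC box, 123 bases upstream of the start, and a GC content of 70.7%. The Gabrg1 window had none and a GC content of 48.7%, against a median of 51.7% over all windows. A GC box on either strand was in 33.1% of all windows, and also in those of Gabra5 and Gabrd. The longest run shared by the Gabra4 and Gabrg1 windows was 8 bases.

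Genes with the profile most like each subunit's were sought among 6691 others, by the root mean square distance between deviations from the group means scaled to unit SD, over 14 arrays. A distance of 0 means identical profiles. Pcsk5, a proprotein convertase, was nearest to both Gabra5 (0.40) and Gabrb1 (0.50). Second came U2af1l4 for Gabra5 (0.63) and Zfp280d for Gabrb1 (0.52). Ncam1, a neural cell adhesion molecule, was nearest to Gabrg1 (0.43), followed by the cadherin gene Cdh22 (0.51). Oga, the enzyme that removes O-GlcNAc from proteins, was nearest to Gabra4 (0.45), followed by Slc3a1 (0.48). For Gabrb2 the nearest genes were Slc37a1 (0.63) and Slc24a3 (0.64), and for Gabrd they were Tmem183a (0.61) and Irf2bp1 (0.62). All were picked as the nearest of 6691 genes over only 14 arrays. No chance level was set for these distances, so they are a description with no test.

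Partner genes that build, anchor, move and modify GABA-A receptors were examined in 4 role lists. Of 40 listed genes, 32 were tested, 15 with higher and 17 with lower means in learning rats, and 0 passed the adjusted threshold in limma (0% of the table). At an unadjusted p below 0.05 there were 2 higher (Ap2b1 and Slc12a2) and 3 lower (Gabarapl1, Nsf and Fyn), together 15.6% of the list, near the 13.1% of the table, of which 6.43% were higher and 6.67% lower. The median difference was -0.02 and the median absolute difference 0.09.

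**Figure D4:**
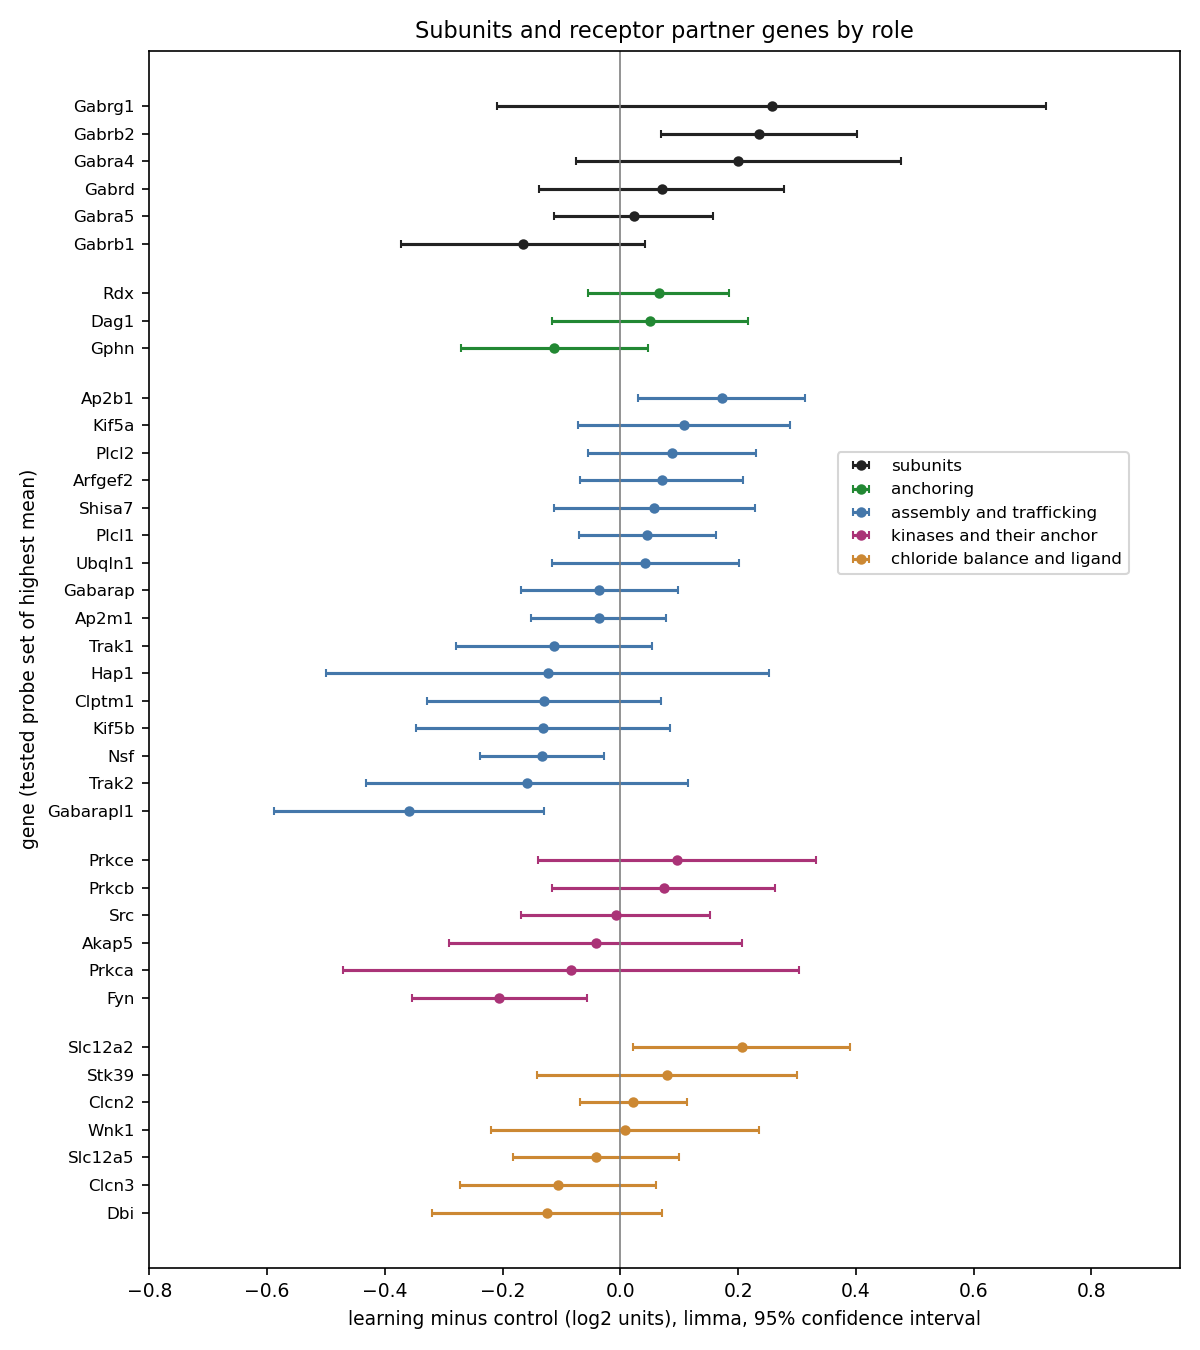
Learning minus control in log2 units with 95% confidence intervals from limma for 6 subunits and 32 partner genes, 1 probe set per gene, grouped by role. Intervals of Gabrb2, Ap2b1 and Slc12a2 lie above 0 and those of Gabarapl1, Nsf and Fyn below it; none of the adjusted p values is below 0.233.

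Of 16 tested assembly and trafficking genes, 7 were higher and 9 lower. Gabarapl1, a ubiquitin-like relative of the receptor-associated protein GABARAP that also acts in autophagy, was at 10.7, 11.0 and 11.1 in the lowest, median and highest control array and at 10.04, 10.7 and 10.9 in learning arrays. Of the learning arrays, 5 of 7 lay below every control array. Such counts, here and for Nsf and Fyn, go with the small p by which these genes were picked. Their share over the table was not counted. The Gabarapl1 difference was -0.36 ± 0.11 (SE), 1.28-fold lower in learning rats (adjusted p = 0.233 in limma). Gabarap itself, which was named after its value was seen, differed by -0.04. Nsf, the ATPase that recycles fusion complexes and helps bring receptors to the surface, ran from 11.5 to 11.6 in control arrays and from 11.3 to 11.6 in learning arrays, where 5 of 7 lay below every control array. Its difference was -0.13 ± 0.05 (SE; adjusted p = 0.289 in limma). Its other probe sets differed by -0.15 and -0.16. Ap2b1, a subunit of the clathrin adaptor that takes up receptors, differed by 0.17 with 0.01 on its other probe set; it was named after its value was seen.

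In the anchoring list 3 of 8 genes were tested, 2 higher and 1 lower. Gphn, which encodes gephyrin, the scaffold of inhibitory synapses, differed by -0.11 ± 0.07 (SE; adjusted p = 0.531 in limma). Leaving out control replicate 1 made this -0.17 (adjusted p = 0.282 in limma). Rdx encodes radixin, which anchors alpha5 receptors to actin, and differed by 0.07 ± 0.06 (SE; adjusted p = 0.628 in limma).

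Of 6 kinase genes and their anchor, 2 were higher and 4 lower. The tyrosine kinase gene Fyn was at 9.25, 9.34 and 9.55 in the lowest, median and highest control array and at 8.93, 9.18 and 9.38 in learning arrays, of which 5 of 7 lay below every control array. The difference was -0.21 ± 0.07 (SE; adjusted p = 0.251 in limma). The other Fyn probe set differed by -0.09. Prkce, a protein kinase C isoform, differed by 0.10 ± 0.11 (SE; adjusted p = 0.724 in limma).

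The direction of the current through the receptor depends on chloride, and 4 of 7 chloride and ligand genes were higher and 3 lower. Slc12a2, which encodes the chloride importer NKCC1, was at 7.10, 7.37 and 7.69 in the lowest, median and highest control array and at 7.46, 7.504 and 7.77 in learning arrays. Only 2 learning arrays lay above every control array. The difference was 0.21 ± 0.09 (SE; adjusted p = 0.339 in limma). Slc12a5, the gene of the exporter KCC2, differed by -0.04 ± 0.07 (SE; adjusted p = 0.810 in limma). It was named after its value was seen. Dbi, whose product binds the benzodiazepine site of the receptor, differed by -0.12 ± 0.09 (SE; adjusted p = 0.570 in limma).

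Cell markers were set beside these values, since in tissue RNA fewer cells of a type and less RNA per cell cannot be told apart. The granule cell genes Prox1 and Calb1 had means of 10.3 and 10.8, and 5 of 9 granule markers reached the testing level. Their mean ran from 8.11 to 8.48 in control and from 8.34 to 8.61 in learning arrays, a difference of 0.13 (exact permutation p = 0.0204, adjusted p = 0.122 over 12 lists). The 5 measured members, named after their values were seen, differed by 0.44 (Dsp), 0.15 (Trpc6), 0.08 (Prox1), 0.01 (Neurod1) and -0.03 (Calb1). The list's difference thus rested mostly on Dsp. Interneuron markers, 3 of 10 measured, ran from 8.13 to 8.49 and from 8.17 to 8.48. The 3 measured members, named after their values were seen, differed by -0.19 (Gad1), 0.12 (Npy) and -0.01 (Pvalb). The other Gad1 probe set differed by 0.08. Astrocyte markers, 9 of 9, ran from 10.7 to 11.0 and from 10.7 to 10.8. CA1 markers, 5 of 9, ran from 6.88 to 7.92 and from 7.39 to 7.79, a difference of 0.32 (exact permutation p = 0.0373, adjusted p = 0.122 over 12 lists, two-sided). Its 5 measured members, named after their values were seen, differed by 0.95 (Wfs1), 0.37 (Mpped1), 0.31 (Fibcd1), 0.0025 (Lmo3) and -0.05 (Itpka). The list's difference thus rested mostly on Wfs1. With the CA1 marker mean as covariate the differences were 0.21 for Gabrb2, -0.23 for Gabrb1, 0.31 for Gabra4, 0.38 for Gabrg1, 0.0016 for Gabra5 and -0.07 for Gabrd. The SE of the Gabrb2 difference was then 0.098, against 0.078 without the covariate. Microglial markers, 7 of 8, ran from 7.37 to 7.90 and from 7.39 to 7.62, a difference of -0.18 (exact permutation p = 0.0408, adjusted p = 0.122 over 12 lists, two-sided). Only the choroid plexus list passed adjustment, with 2 measured members of 6. These were Ttr, which differed by -1.78 and was known to differ from earlier results, and Enpp2, which differed by -0.04, so the list's difference rested on Ttr. The list's mean ran from 6.67 to 7.98 in control and from 6.34 to 6.61 in learning arrays (exact p = 0.000583, the smallest possible, adjusted p = 0.00699). The part of any of these markers in the subunit values was not tested beyond the covariates given.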

How the data were processed

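Microdissected dentate gyrus RNA of 14 rats, 7 per group by the sample titles, was labelled with biotin and hybridised to RAE230A arrays, per the labels' protocols. The deposited values are log2 expression per probe set that the authors made with GCRMA, as the submitters' processing notes list it. Its version was not given in the sources used here. Their range was -0.56 to 15.0 and array medians lay between 5.09 and 5.12. Correlations between arrays over non-control probe sets were 0.995 to 0.998. The number of arrays limits the precision.

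Probe sets whose mean over all arrays was 4 or more, without 57 controls, were tested (9387 of 15866) for learning minus control with limma 3.58.1 in R 4.3.3 (lmFit and eBayes, no covariate). The fit was tested on simulated data with known changes in a set of probe sets. Probe set symbols came from the platform annotation: 12783 probe sets had 1 symbol, 312 several and 2771 none listed. For each gene the tested probe set with the highest mean was used. No sequence positions of the probes were used. Marker means were compared by exact permutation over 3432 assignments.

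All subunit probe sets are described, with 2 partner genes of smallest p per role and 2 most alike genes per subunit; genes outside this rule are said to be so. The subunits, partner and marker lists were chosen with earlier results of these data known. Marker lists not described in the text (mossy, CA3, oligodendrocyte and precursor, endothelial, meningeal) differed by -0.10, 0.0089, -0.02, -0.09, -0.03 and -0.43; the interneuron and astrocyte lists differed by -0.03 and -0.05. Alternatives were other filters, scalings, priors, array weights, a replicate block, marker covariates, averaged probe sets and each array left out. Figures were drawn with matplotlib 3.10.9.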

Additional observations from a re-analysis of the deposited data

Results flagged for a closer look

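Gabrb1 in learning replicate 3 stood apart from the other learning arrays. Its value was 8.75, and the next lowest learning array was at 9.13, a gap of 0.62 of the group's whole range against a critical value of 0.568 for 7 arrays. It was the only such value in 54 groups of arrays checked. These held the subunit probe sets, the 8 partner genes named by the rule and the marker means. Chance alone gives such a value in about 1 of 20 groups, so 1 in 54 is not more than chance gives. In the same array the beta-actin control gave a 3' over 5' log2 ratio of 1.58, the highest of all arrays, whereas the GAPDH control gave 0.485, below control replicate 1 and learning replicate 4. Gabra5 was at 10.1, the lowest learning value. Their part in the low Gabrb1 value was not tested.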

How the results depend on the processing

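Under 27 alternatives, 14 of which left out 1 array each, 0 subunits and 0 partner genes passed the adjusted threshold in limma. Subunit differences kept their sign for Gabrb2 (0.18 to 0.27), Gabra4 (0.14 to 0.31), Gabrb1 (-0.23 to -0.09) and Gabrg1 (0.12 to 0.39). Without 1 array Gabra5 ran from -0.017 to 0.053, at -0.0069 without control replicate 6 and -0.017 without learning replicate 2, and Gabrd was at -0.072 with the CA1 marker mean as covariate; the cause was not tested. The 8 partner genes named by the rule kept their sign, but some sizes moved: without 1 array Gphn ran from -0.17 to -0.09, Prkce from 0.05 to 0.16, Rdx from 0.03 to 0.08 and Dbi from -0.18 to -0.08. With the CA1 marker mean as covariate Fyn was at -0.13 and Gabarapl1 at -0.25, with unadjusted p of 0.124 and 0.0643 in limma. Prkce was then at 0.24. With the astrocyte mean Prkce was at 0.03 and Gphn at -0.07. Slc12a2 ran from 0.16 to 0.26 under the 27 alternatives. Its unadjusted p in limma was not below 0.05 with the CA1 or astrocyte mean as covariate or with the replicate block. The same held without control replicate 2 or 7 or learning replicate 2 or 6, each left out alone. Same-numbered control and learning arrays had correlations of deviations from -0.28 to 0.26, above 0.1 for 4 of 7 numbers, and for 4 of 7 control arrays the learning array that correlated best had the same number. Since not every pair exceeded 0.1, the numbers were not taken as pairs in the main fit. That limit was a rule for choosing the fit and not a test of pairing. Whether arrays of the same number were processed together was not tested. With the replicate block the adjusted p of Gabrb2 was 0.259 and 0 probe sets of the table were called; the block changed no call. It gave an unadjusted count of 1330. Over the whole table, leaving out 1 array gave 0 to 1 calls, 1 without control replicate 6, learning replicate 1 or learning replicate 4, and 942 to 1375 probe sets at an unadjusted p below 0.05. Averaging the probe sets of a gene, which leaves fewer features, gave 819. With Spearman's rho in place of Pearson's r, 0 rather than 2 pairs of subunits passed. The correlation of Gabrb2 and Gabrg1, 0.37, was -0.14 without control replicate 7 and learning replicate 1. Dim probe sets limit what can be said of the second Gabrb2 probe set and of the other subunit genes.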
